A study of Mus musculus with 6 samples.

Results

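Adipocyte genes were followed on the arrays as a gauge of fat pad tissue carried over into preparations of mammary epithelium. The list held 10 genes, Fabp4, Adipoq, Plin1, Lpl, Cd36, Pparg, Retn, Cfd, Lep and Cidec, and every probe set whose platform gene symbol was exactly one of these names was taken. This gave 14 probe sets of the 45037 tested and 8 genes of the 18193 that had a probe set with a single gene symbol. Plin1, which coats the lipid droplet, and Cfd, the serine protease adipsin, had no probe set under their symbols and were not analysed here.

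The ducts of the mouse mammary gland grow through a fat pad, so that epithelium and adipocytes lie side by side in the living gland, and digestion of the gland frees the epithelium as organoids, fragments of ducts and end buds. An adipocyte takes up fatty acids that lipoprotein lipase releases from circulating triglyceride, stores them in a lipid droplet and secretes hormones such as adiponectin and leptin. The nuclear receptor PPARγ and the C/EBP factors turn on much of this program. Adiponectin, leptin, resistin and the droplet protein CIDEC are largely confined to fat in the mouse, whereas Cd36, Lpl, Pparg and Fabp4 are also expressed in other cells, among them capillary endothelium and macrophages.

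Expression had been measured on Affymetrix whole-genome mouse arrays in organoids of 3 WT mice and 3 KO mice, 1 array a mouse, all 8 weeks old and of a mixed 129/J and C57BL/6 background. Both groups carried WWOX flox/flox, that is, both alleles of Wwox flanked by loxP sites. WT mice were BK5-cre - and gave the arrays WT1, WT2 and WT3. KO mice were BK5-cre + and gave the arrays KO5, KO6 and KO7, with the recombinase driven by the bovine keratin 5 promoter, which is active in basal epithelial cells. No mice with Cre and intact Wwox were on the arrays, so an effect of Cre and the loss of Wwox cannot be told apart. All values below are log2 values made by RMA, a method that corrects the background, brings the arrays to a common distribution and summarises the probes of each set. A probe set counts as called where its unadjusted p was under 0.01 and it differed 2-fold or more, and the adjusted p printed with it takes in the whole array. Where 1 value per gene was needed, the probe set with the highest mean over the 6 arrays was taken, here called the brightest.

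The brightest Wwox probe set lay at 7.77, 7.63 and 7.72 in WT and at 6.23, 5.87 and 5.96 in KO, and fell by 1.69 on the log2 scale (standard error 0.13, limma, adjusted p = 0.0228). Markers of both layers of the mammary epithelium were present on all arrays. Krt8 and Krt18, the keratins of luminal cells, lay between 14.15 and 14.71, and differed between the groups by 0.12 and 0.14. Krt5 and Krt14, keratins of basal cells, differed by 0.09 and 0.13, and none of these 4 was called. RNA quality differed between the groups. The mean 3′ minus 5′ difference of the Gapdh and β-actin controls, which is larger in more degraded RNA, averaged 1.63 ± 0.60 over WT arrays and 0.564 ± 0.029 over KO arrays (SD, n = 3 each), with every WT array above every KO array (exact permutation test, two-sided, p = 0.1, the smallest that 3 against 3 allow). Within WT it was 0.96 in WT1, 2.13 in WT2 and 1.80 in WT3.

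The 250 bases before a RefSeq transcription start (build GRCm38.p6) are shown for 4 members, with matches in capitals to CCAAT, to TTNNGCAA, a loose form of the C/EBP site, and to TATAAA, on either strand. Adipoq and Lep stand for the genes largely confined to fat, and Cd36 and Pparg for those also used by other cells. The Adipoq promoter (chr16:23146286-23146535, plus strand) held 3 CCAAT matches close to the start. The Lep promoter (chr6:29059971-29060220, plus strand) held TTGCGCAA, the full C/EBP palindrome, which is also a case of the loose form. Of the 3 Pparg starts listed, the one farthest downstream (chr6:115421816-115422065, plus strand) held 2 matches to CCAAT and 2 to TTNNGCAA. The Cd36 promoter (chr5:17835897-17836146, minus strand) held 1 CCAAT match.
Adipoq promoter: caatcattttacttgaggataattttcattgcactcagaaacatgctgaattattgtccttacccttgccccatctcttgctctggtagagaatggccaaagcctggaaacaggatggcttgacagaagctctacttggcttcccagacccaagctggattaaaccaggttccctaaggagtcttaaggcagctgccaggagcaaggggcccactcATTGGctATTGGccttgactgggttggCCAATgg
Lep promoter: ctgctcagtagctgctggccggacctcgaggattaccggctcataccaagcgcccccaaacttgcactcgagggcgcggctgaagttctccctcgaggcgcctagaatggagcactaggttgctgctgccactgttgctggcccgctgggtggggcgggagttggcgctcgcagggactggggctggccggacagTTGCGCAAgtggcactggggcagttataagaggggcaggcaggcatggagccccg
Pparg promoter: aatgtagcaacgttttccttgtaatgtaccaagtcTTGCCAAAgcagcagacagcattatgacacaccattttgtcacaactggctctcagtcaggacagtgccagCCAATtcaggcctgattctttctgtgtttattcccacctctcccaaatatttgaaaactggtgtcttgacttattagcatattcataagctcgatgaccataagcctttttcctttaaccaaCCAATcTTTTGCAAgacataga
Cd36 promoter: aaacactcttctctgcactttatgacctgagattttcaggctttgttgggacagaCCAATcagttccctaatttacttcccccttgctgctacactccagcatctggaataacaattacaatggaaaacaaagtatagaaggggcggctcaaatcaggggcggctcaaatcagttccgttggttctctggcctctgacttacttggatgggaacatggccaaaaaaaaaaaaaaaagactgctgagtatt

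Of the 10 genes listed, 8 had a promoter in the table, with 11 starts between them, and Fabp4 and Lpl had none there. CCAAT was found in 4 of these 11 promoters and in 33.8% of 32851 promoters of the same length. TTNNGCAA was found in 4 of 11 and in 9.56% of all, TTGCGCAA in 1 of 11 and in 0.164%, and TATAAA in 1 of 11 and in 12.4%. DR1, the direct repeat of a nuclear receptor half-site that PPARγ binds with its partner RXR, was searched in its exact form and was in 0 of 11 and in 0.0335% of all. These counts say only which letters lie in the windows. Whether a match goes with the array values was not tested. Adipoq and Cd36, both with a CCAAT match, differed between the groups by -0.66 and 0.72 and ranked the arrays alike within each group. Cidec, with no CCAAT match, ranked them in that order too, while Pparg, with CCAAT matches, did not.

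The genes largely confined to fat differed less between the genotypes than the WT mice differed among themselves, by the SD of the WT arrays. Adipoq, the hormone adiponectin, lay at 5.67, 7.49 and 9.00 in WT1, WT2 and WT3 and at 6.84, 6.19 and 7.15 in KO5, KO6 and KO7. The WT arrays thus held both the lowest and the highest value, 10.1-fold apart, with all 3 KO arrays between them. The difference of KO from WT was -0.66 (standard error 0.75, limma, adjusted p = 0.683). It was not called, and it turned to 0.15 when WT3 was left out. Whether the array range of Adipoq reflects fat pad tissue was not tested, and in bulk samples such as these fewer cells of a type and less RNA per cell cannot be told apart.

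Retn, the hormone resistin, lay at 6.78, 7.86 and 8.49 in WT and at 6.85, 6.96 and 6.91 in KO. The spread of its WT values (SD 0.86) was far wider than that of its KO values (SD 0.06), and WT1 was beside the KO arrays. The difference was -0.81 (standard error 0.38, limma, adjusted p = 0.302) and was not called over all 6 arrays. Without WT1 it was -1.27 and was called (limma, adjusted p = 0.0158), so a single WT array decided that call. Adipoq without WT1 differed by -1.52 and was still not called.

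Cidec, which enlarges lipid droplets by fusing them, lay at 4.27, 4.62 and 5.20 in WT and at 4.93, 4.57 and 5.12 in KO. Lep, the satiety hormone leptin, lay at 4.64, 4.54 and 5.02 in WT and at 4.36, 4.71 and 4.47 in KO. Both were dim and their groups overlapped, with differences of 0.17 for Cidec (limma, adjusted p = 0.758) and -0.22 for Lep (limma, adjusted p = 0.508). Without WT1 the difference of Cidec was -0.04. Over the 4 genes largely confined to fat, WT3 was the highest of the 6 arrays for 4 of 4 and WT1 the lowest for 3 of 4. Their mean level relative to the 6-array mean was -0.60 in WT1, 0.19 in WT2 and 0.98 in WT3, against -0.20, -0.34 and -0.03 in KO5, KO6 and KO7.

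**Figure D1:**
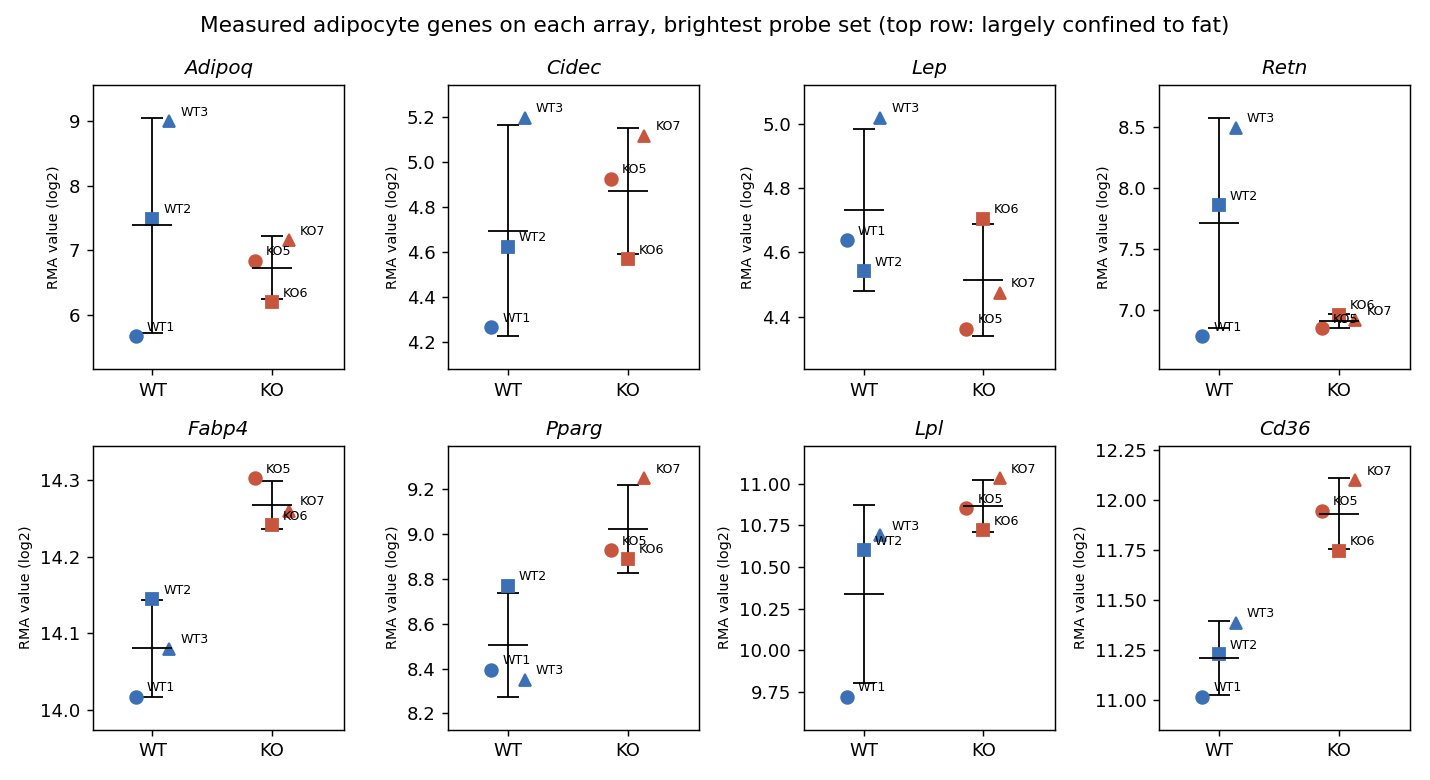
RMA values (log2) of the brightest probe set of each of the 8 measured adipocyte genes, by group, with 1 point per array and bars for the mean and SD of 3 mice. In the top row, genes largely confined to fat, the groups overlap, and WT3 is highest in 4 of 4, as for Adipoq at 9.00. In the bottom row, genes also used by other cells, every KO array lies above every WT array. Each panel has its own scale.

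The genes also used by other cells had the groups apart on the same arrays. All 10 probe sets of Cd36, Lpl, Pparg and Fabp4 had every KO array above every WT array, an arrangement found for 10.7% of all probe sets tested, with the opposite one, every KO array below every WT array, found for 13.6%. Taking the brightest probe set, it held for 4 of 4 genes, against 7.2% of all genes, while the opposite arrangement held for 0 of the 8 members and 16.1% of all genes. Probe sets of a gene read the same RNA and are not replicates of each other.

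Cd36, the fatty acid translocase of the cell surface, lay at 11.02, 11.23 and 11.39 in WT and at 11.95, 11.75 and 12.10 in KO. Its difference of 0.72 (standard error 0.15, limma, adjusted p = 0.0705) was 1.65-fold and so short of the fold limit, although its unadjusted p was 0.0014. A second Cd36 probe set lay at 10.47, 11.09 and 11.33 in WT and at 11.81, 11.62 and 11.99 in KO, a difference of 0.84 (1.03 and called without WT3), and the remaining one differed by 0.54. WT1 was the lowest array on all 3 of them. KO7 was the highest on all 3, so the ranks of the arrays did not depend on the Cd36 probe set chosen at either end.

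Lpl, the lipase that frees fatty acids from lipoproteins at the capillary wall, lay at 9.72, 10.60 and 10.69 in WT and at 10.85, 10.72 and 11.03 in KO. The gap between the groups was narrow here, since WT3 and KO6 were almost level, and WT1 was well below all the others. The difference was 0.53 (standard error 0.26, limma, adjusted p = 0.312), and it was 0.22 without WT1. The other Lpl probe set lay at 7.05, 7.35 and 7.73 in WT and at 8.34, 7.92 and 8.32 in KO, a difference of 0.82 (standard error 0.20, limma, adjusted p = 0.0969). Neither was called.

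Pparg, the nuclear receptor that drives fat cell differentiation, lay at 8.39, 8.77 and 8.35 in WT and at 8.93, 8.89 and 9.25 in KO. Its difference of 0.52 (standard error 0.16, limma, adjusted p = 0.147) was not called. On the brightest probe sets, Pparg was the one gene of these 4 for which WT3 and not WT1 was the lowest array.

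Fabp4, the fatty acid carrier of the adipocyte cytoplasm, held the only called probe sets of the list, and its 4 probe sets differed in the size of their change. The brightest lay at 14.02, 14.14 and 14.08 in WT and at 14.30, 14.24 and 14.26 in KO, a difference of 0.19 (standard error 0.10, limma, adjusted p = 0.362). The next differed by 0.16. Of the called ones, the smaller change was that of a probe set at 7.30, 8.40 and 8.12 in WT and at 9.51, 8.74 and 9.11 in KO, which rose by 1.18 on the log2 scale, or 2.27-fold (standard error 0.31, limma, adjusted p = 0.109). The other called probe set lay at 7.03, 7.24 and 6.59 in WT and at 10.05, 9.09 and 9.65 in KO. It rose by 2.65, or 6.27-fold (standard error 0.27, limma, adjusted p = 0.035).

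The 6.27-fold rise was called in each setting tried that kept the 2-fold rule, also with any single array left out. The 2.27-fold rise was not called without WT1, at 0.86, without KO5, at 0.99, or without KO7, at 1.19. Where on the transcript each of these probe sets lies was not analysed here, so the Fabp4 probe sets that disagree could not be assigned to parts of the gene. The direction was the same for all 4, whereas the size of the change in Fabp4 rests on the probe set read.

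**Figure D2:**
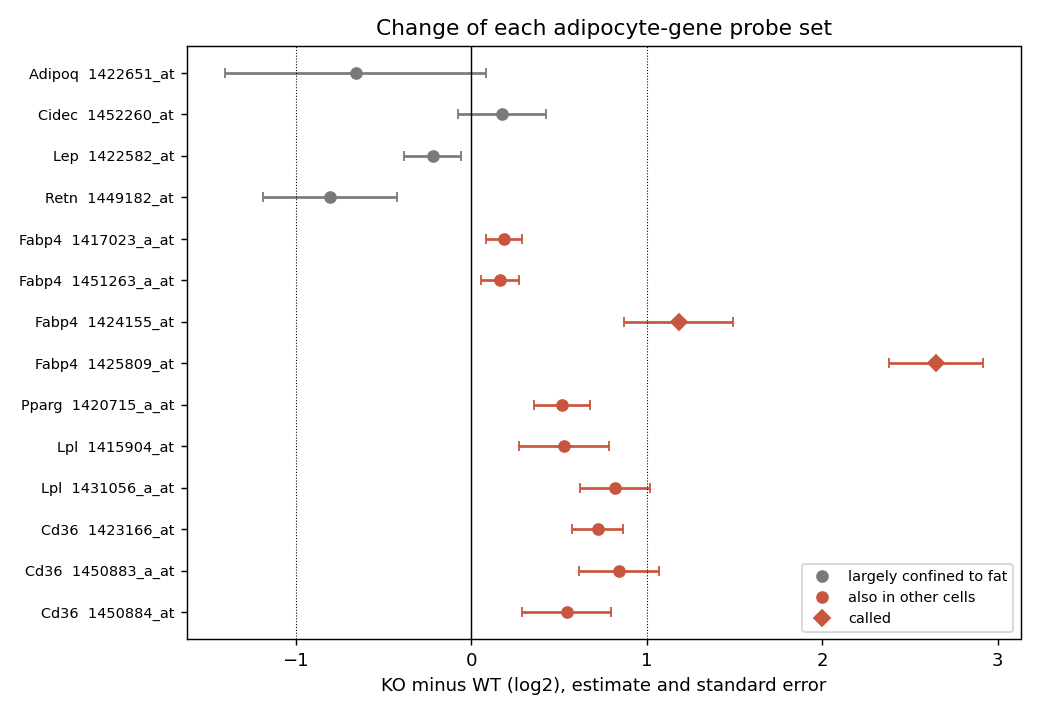
KO minus WT (log2) for each of the 14 probe sets of the adipocyte genes, with the standard error as a bar and dotted lines at a change of 2-fold. Grey marks genes largely confined to fat and red those also used by other cells, and diamonds are the called probe sets. All 10 red points lie above 0, from 0.16 to 2.65, and 3 of the 4 grey points lie below it.

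In all, 2 of 14 probe sets were called, both higher in KO, while 1.99% of all probe sets were called, 1.69% higher and 0.3% lower. Both belong to Fabp4. By limma 1 of the 14, also of Fabp4, passed an adjusted p under 0.05, as did 0.222% of all probe sets. It did not pass without WT2 (adjusted p = 0.167), KO5 (0.119), KO6 (0.0569) or KO7 (0.12), with the RNA quality covariate (0.75) or with the replicate number as a block (0.0739), all by limma. On the brightest probe set 0 of 8 genes were called by limma, while 0.978% of all genes were called, 0.517% higher and 0.462% lower. With only an unadjusted p under 0.05 asked for, 2 of the 8 were higher and 0 lower, beside 6.17% and 13% of all genes. At an adjusted p under 0.05 these were 0 of 8 and 0.137%. Without the fold limit, a rule chosen after the values had been seen, 5 of the 14 probe sets were higher at an unadjusted p under 0.01, as were 4.23% of all probe sets. On the brightest probe set this was 1 of 8, Cd36, beside 1.93% of all genes. The 5 were 2 each of Fabp4 and Cd36 and 1 of Lpl. The median difference of the 8 genes was 0.18, beside -0.06 for all genes. It combined a median of -0.44 for the genes largely confined to fat with one of 0.52 for the others. With each array left out these lay between -0.77 and 0.036 and between 0.34 and 0.66.

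The difference in RNA quality between the groups ran alongside these values, and its part in them was not tested. A fit with it as a covariate cannot separate it from genotype. The 3′ minus 5′ difference was 0.54 to 0.60 on the KO arrays and 0.96 or more on every WT array. The slope in that fit thus rests mostly on the WT arrays. With the 3′ minus 5′ difference of each array in the fit, 2 of the 4 genes largely confined to fat turned direction, Adipoq to 1.48 (standard error 1.06) and Retn to 0.42, while Cidec was at 0.65 and Lep at -0.18, and none of the 4 was called. The other genes kept their direction, with Cd36 at 0.96, Lpl at 1.41, Pparg at 0.77 and Fabp4 at 0.29 on the brightest probe sets. Lpl then passed the limits for a call, although its adjusted p by limma was 0.756.

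Within each group the arrays kept an order that several members shared. For Adipoq it was WT1, WT2, WT3 from low to high in WT and KO6, KO5, KO7 in KO. The same order in both groups was held by 6 of the 14 probe sets, those of Adipoq, Cidec and Cd36 and the brightest of Lpl, against 4.61% of all probe sets, and by 4 of the 8 genes on their brightest probe sets, against 6.29% of all genes. Adipoq set the order and counts among the 6, and the order was noticed after the values had been seen. WT1 was the lowest WT array for 6 of the 8 genes and KO6 the lowest KO array for 6 of 8, the exceptions in KO being Lep and Retn.

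The correlations of the members over the 6 arrays are given as descriptions, since all points come from the same arrays. They pool WT and KO, so the difference between the groups enters each r. Adipoq ran with Retn (r = 0.89) and with Cidec (r = 0.79), and weakly with Cd36 (r = 0.03) and Fabp4 (r = -0.09). Fabp4 ran with Cd36 (r = 0.92) and Pparg (r = 0.88), and Lpl with Cd36 (r = 0.84). Cidec ran with both, since its r was 0.79 with Lpl and 0.60 with Cd36, but 0.44 with Retn and 0.16 with Lep. Within the groups, Cd36 ranked the arrays as Adipoq did, despite their low r. From its group mean, Cd36 lay at -0.20, 0.02 and 0.18 in WT and at 0.02, -0.18 and 0.17 in KO. Adipoq lay at -1.72, 0.11 and 1.61 in WT and at 0.11, -0.54 and 0.43 in KO.

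With the Adipoq value of each array as a covariate, a fit chosen after the values had been seen, the genes used by other cells were higher in KO on all 10 probe sets. Cd36 was at 0.81 (standard error 0.12), Lpl at 0.73 (standard error 0.14) and Pparg at 0.53 (standard error 0.17) on the brightest probe sets. For Lpl the standard error had been 0.26 without the covariate. The second Cd36 probe set was at 1.02 and was then called (limma, adjusted p = 0.0178), so 3 of the 13 probe sets other than that of Adipoq were called. Retn was at -0.50 and Cidec at 0.37 in this fit. Adipoq itself differed by -0.66 in KO, so the fit raises the difference of any gene that goes up with Adipoq within the groups. It could not have taken away the rise of such genes, and the part of fat pad tissue in them was not tested.

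**Figure D3:**
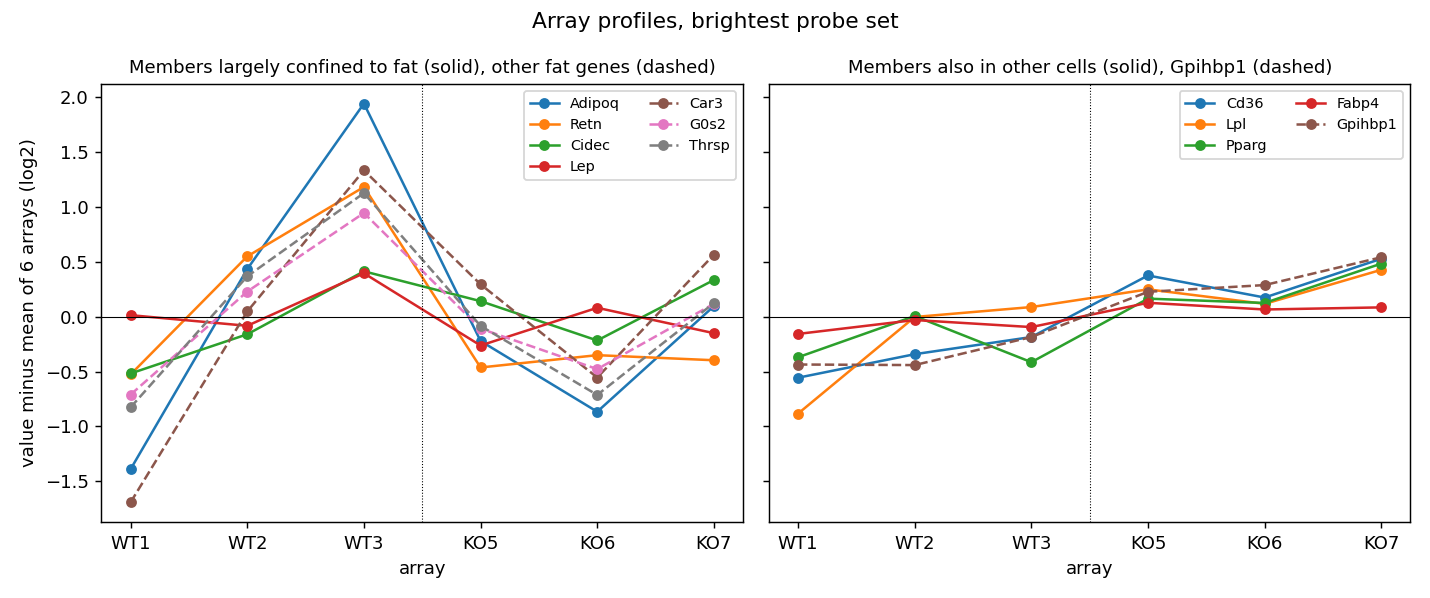
Value of the brightest probe set minus its mean over the 6 arrays (log2), by array, with a line joining the points of each gene and a dotted line between WT and KO. On the left, Adipoq, Retn and Cidec are lowest in WT1 and highest in WT3, as are Car3, G0s2 and Thrsp (dashed), while Lep is lowest in KO5. On the right, Cd36, Lpl, Pparg and Fabp4 are higher on the KO arrays, as is Gpihbp1 (dashed), with a difference of 0.71.

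Among 2904 genes that spanned at least 1 log2 unit over the arrays, the profile most like the mean of the 8 members was that of Car3, a carbonic anhydrase abundant in adipocytes and muscle (r = 0.99 over 6 arrays). Car3 lay at 9.09, 10.83 and 12.12 in WT and at 11.08, 10.23 and 11.35 in KO, in the array order of Adipoq. The next were Gpsm2 (r = 0.98), Tmem45b (r = 0.97), Pyroxd2 (r = 0.96), H2-Q2 (r = 0.96) and Serpinb11 (r = 0.95). All of these were compared over the same 6 arrays, and none of them was called.

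Against Adipoq alone, a comparison chosen after the values had been seen, the closest of 2907 genes were G0s2, which inhibits the triglyceride lipase of fat cells, and Thrsp, a lipogenic regulator (r = 0.99). G0s2 lay at 6.78, 7.72 and 8.44 in WT and at 7.38, 7.01 and 7.61 in KO. Thrsp lay at 7.01, 8.20 and 8.96 in WT and at 7.75, 7.12 and 7.96 in KO. Both kept the array order of Adipoq, and neither was called, at -0.31 and -0.45. The next in likeness were Dpy30 (r = 0.98), Cmc2 (r = 0.98) and Pcbd1 (r = 0.98), which were not on the lists of adipocyte genes. The likeness to Adipoq varied widely among the other adipocyte genes. Of the 23 other adipocyte genes with a range this wide, 3 were among the 100 most like Adipoq. The median r of the 23 with it was 0.09, beside 0.15 for all genes. Of the 23, the next after those 3 were Adig (r = 0.85) and Mrap (r = 0.82), at ranks 235 and 305 of the 2907 genes. Scd1 (r = -0.70) and Irs2 (r = -0.76) were at the other end.

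A wider list of adipocyte genes held few calls. Of 62 genes for fat cell hormones, lipid handling, insulin response and regulators, 59 were measured, 1 was called higher and 0 lower, against 0.978% of all genes called. Their median difference was 0.07, with 6 of the 59 having every KO array above every WT array and 2 the reverse, beside 7.2% and 16.1% of all genes. Lipe, the hormone-sensitive lipase, was the called gene. It lay at 6.94, 5.78 and 6.49 in WT and at 7.47, 7.31 and 7.65 in KO, and rose by 1.08 (standard error 0.28, limma, adjusted p = 0.105). The count of called genes was 0 without WT2, without WT3 or without KO5, and 3 without WT1.

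Genes of the lipid droplet and of lipid breakdown included several with the groups apart. Mgll, which completes the breakdown that Lipe takes part in, lay at 9.83, 9.39 and 9.24 in WT and at 10.63, 10.44 and 10.39 in KO, with a difference of 0.997 (limma, adjusted p = 0.0571) just short of 2-fold. Aqp7, the glycerol channel, differed by 0.76. These 3 were the only ones of the 9 measured genes of this group with every KO array above every WT array, which 7.2% of all genes had, and the median of the 9 was 0.30. Like Cd36 and Lpl, Lipe, Mgll and Aqp7 are used outside fat.

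The other functional groups held no called gene, while 0.978% of all genes were called. Of 11 transcription factors, Rxra, the partner of PPARγ, differed by 0.80 (limma, adjusted p = 0.113) and the coactivator Ppargc1a by 0.71 (limma, adjusted p = 0.119). Only these 2 of the 11 had every KO array above every WT array, beside 7.2% of all genes. The median was 0.25. Cebpa, which acts with Pparg in the fat cell, lay between 8.18 and 8.24 on all 6 arrays. For 8 secreted factors the median was 0.09, with Agt, angiotensinogen, at 0.68 and Nnat at 0.14. For 9 genes of triglyceride assembly the median was 0.07, with the lipase relative Pnpla3 at -0.26 and Mogat1 at 0.28. For 10 genes of fatty acid synthesis it was -0.07, with the carboxylase gene Acaca at -0.22 and the synthase gene Fasn at 0.26. For 12 genes of hormone response and glucose uptake it was 0.07, with the adiponectin receptor gene Adipor2 at 0.29 and Acvr1c at -0.23.

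Brown fat genes showed no called change either, with a median of 0.05 over 9 measured genes. Among them Ucp1, the uncoupling protein of brown fat, stayed between 4.55 and 5.04. Of 11 genes of preadipocytes and their stem cells, 1 was called, beside 0.978% of all genes, and the median was 0.13. There were 7 positive and 4 negative genes, with Cd55 at -0.65 and Ccn5 at -0.54 among the latter. Of all 18193 genes, 7066 were positive and 11127 negative. The called gene was Pi16, a marker of a fibroblast-like progenitor in connective tissue. It lay at 7.57, 7.56 and 8.31 in WT and at 9.84, 10.33 and 8.70 in KO, and rose by 1.81 (standard error 0.41, limma, adjusted p = 0.0852). KO7 was the highest KO array for Adipoq and the lowest for Pi16, while KO6 was the highest for Pi16 as it was for Lep and Retn. Of 14 relatives of the members, among them Fabp5, Plin2 and Ppard, none was called and the median was -0.04. Retnla, a relative of Retn known from macrophages, differed by -1.17 and the lipase gene Lipg by -0.80.

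Endothelial markers stood higher on the KO arrays, as did Cd36, Lpl, Pparg and Fabp4. All 15 endothelial genes were positive, beside 7066 of all 18193 genes, with a median of 0.61. Of the 15, 8 had every KO array above every WT array, beside 7.2% of all genes. Of the 15, 2 were called, both higher, beside 0.517% of all genes. Cldn5, of the endothelial tight junction, rose by 1.24 (limma, adjusted p = 0.0401) and Tie1, an endothelial receptor, by 1.16 (limma, adjusted p = 0.125). Gpihbp1, which holds the Lpl protein at the capillary wall, lay at 9.92, 9.91 and 10.17 in WT and at 10.58, 10.64 and 10.90 in KO, with a difference of 0.71 (limma, adjusted p = 0.0669). The mean level of the endothelial list was -0.16, -0.24 and -0.53 in WT and 0.52, 0.29 and 0.12 in KO. Like Cd36, Lpl, Pparg and Fabp4 it was higher on every KO array, but it ranked the KO arrays otherwise, with KO7 lowest where KO7 was highest for 3 of those 4 genes. The part of endothelial RNA in their values was not tested.

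Of 12 fibroblast genes, 11 were positive, beside 7066 of all 18193 genes, with a median of 0.44. Every KO array lay above every WT array for 4 of the 12, beside 7.2% of all genes. Col1a1, a collagen chain, rose by 1.43 (limma, adjusted p = 0.0492). It was the 1 gene called of the 12, beside 0.517% of all genes called higher. All 13 macrophage genes and all 9 lymphocyte genes were negative, beside 11127 of all 18193 genes, with medians of -0.27 and -0.52. Of these only the complement gene C1qb was called, at -1.19 (limma, adjusted p = 0.0887), beside 0.462% of all genes called lower. The mean lymphocyte level was 1.54, 0.64 and -0.69 in WT, with WT1 the highest of the arrays, where WT1 was the lowest for most members. Luminal, basal and skeletal muscle genes had medians of 0.13, 0.02 and 0.02 and no called gene. The part of these cells in the members' values was not tested.

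**Figure D4:**
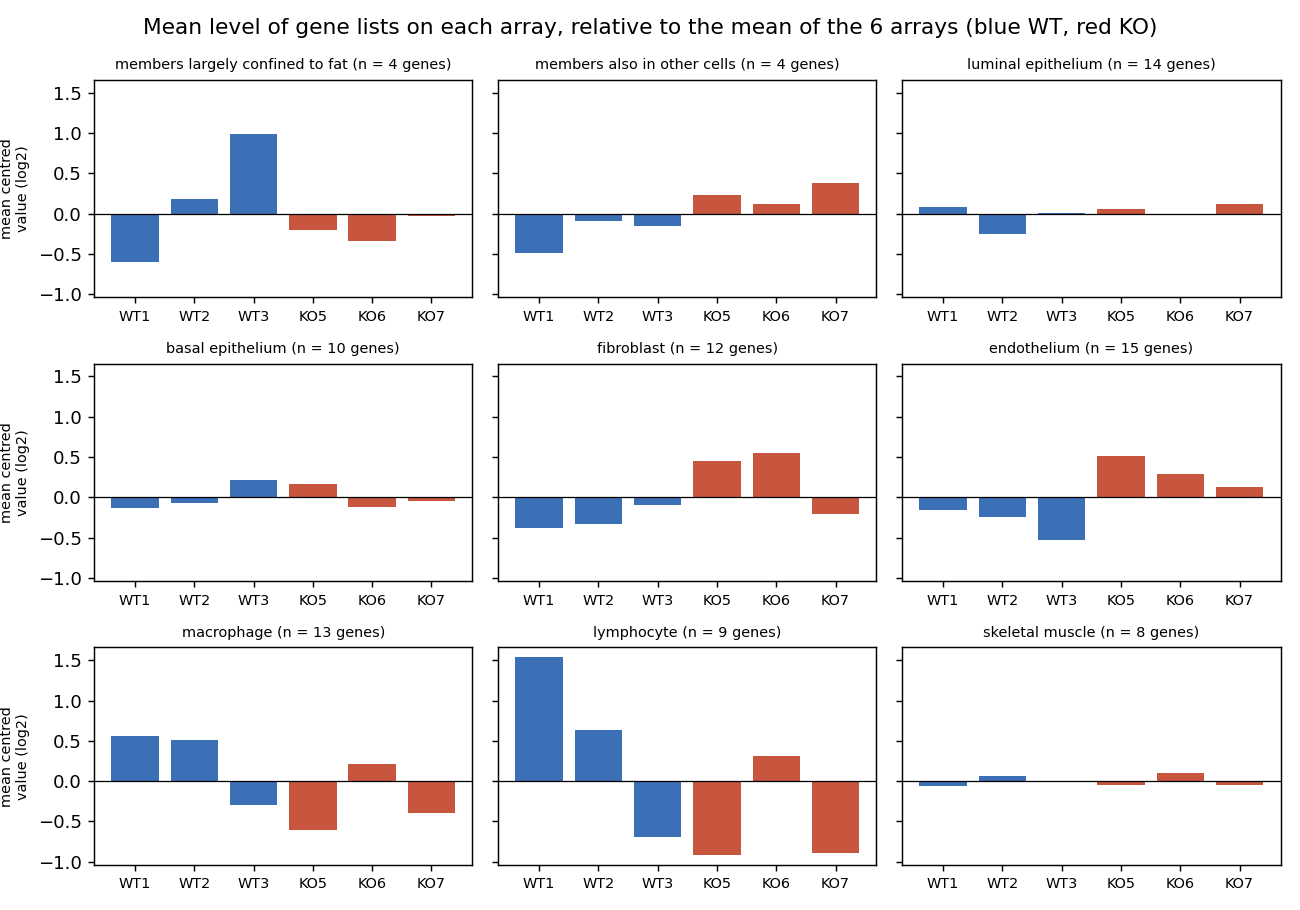
Mean over the genes of a list of the brightest probe set minus its mean over the 6 arrays (log2), by array, with WT in blue and KO in red. Genes largely confined to fat peak in WT3, at 0.98, and the members also used by other cells and the endothelial genes are above 0 on all 3 KO arrays and below it on all 3 WT arrays. Lymphocyte genes are highest in WT1, at 1.54.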

How the data were processed

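Per the authors' methods, quality control and normalization used simpleaffy. The deposited table holds log2 values from RMA, whose version is not given in the sources used here. It has 45101 probe sets, among them 64 Affymetrix controls that served only to gauge RNA quality. Of the 45037 others, 34945 have a single gene symbol, through which genes were named, 932 have several and 9160 none. No arrays were identical.

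The deposited values were fitted in limma 3.58.1 under R 4.3.3 (lmFit and eBayes, KO minus WT, no covariate), with Benjamini-Hochberg adjustment across every probe set in the fit. The step was tested on simulated data. The number of arrays limits the precision.

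The members and gene lists were chosen with earlier results of these data known. Named genes were the members with all their probe sets, Wwox, the called genes of each list or else the 2 with the smallest p, 4 keratins, and the 6 genes most like the mean member profile. Others (the likeness to Adipoq, the order of arrays, Gpihbp1, Cebpa, Ucp1 and examples from the lists) were chosen after their values were seen. Promoters are those of RefSeq.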

Additional observations from a re-analysis of the deposited data

How the results depend on the processing

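Scaling the arrays again (quantile, cyclic loess, ribosomal protein centring) left the calls of the members as they were, and moved the median of all genes by less than 0.1. Called member probe sets, 2 of 14, were 5 with RNA quality as a covariate, 1 at an adjusted p under 0.05 by limma, and 1 to 3 with each array left out. Called member genes, 0 of 8 by limma, were 1 with that covariate, 1 with each gene's probe sets averaged, and 0 to 1 with each array left out. The single other adipocyte gene called became 2 after quantile normalization, 2 after cyclic loess, 2 after ribosomal protein centring, 2 with array weights, 3 with the RNA quality covariate, 0 at an adjusted p under 0.05 by limma, and 0 to 3 with each array left out. The median of the members, 0.18, was 0.71 with that covariate and 0.06 to 0.31 with each array left out, and that of the other adipocyte genes was 0.012 to 0.12 with each array left out and 0.13 after ribosomal protein centring, the highest of its settings. With each array left out, Adipoq lay between -1.52 and 0.15, Cidec between -0.040 and 0.43 and Retn between -1.27 and -0.42. The covariate put Adipoq at 1.48 and Retn at 0.42, with 316 probe sets called overall in place of 894. The cause was not tested.

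Correlations between same-numbered arrays were -0.16, 0.16 and 0.10, and those between the other WT and KO arrays lay from -0.26 to 0.20. They cannot tell whether the mice were paired. With the replicate number as a block, 1 member probe set was called, while the 2.27-fold rise of Fabp4 kept its 1.18 but not the call. The counts of 0 member genes (limma) and 1 other adipocyte gene and the medians of 0.18 and 0.07 were the same with the block.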
